A study of Caenorhabditis elegans with 2 samples.

Results

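The 8 genes described here encode parts of the meiotic chromosome axis and the synaptonemal complex of Caenorhabditis elegans, and the values are positions and ranks of binding sites of the TATA-binding protein TBP-1 near them. They were picked by name (rec-8, htp-3, him-3, htp-1, htp-2, syp-1, syp-2 and syp-3), not by a measured value, and all 8 matched a symbol among the 19973 protein-coding genes of the nuclear chromosomes in the WBcel235 (ce11) annotation, Ensembl release 115. Chromatin was immunoprecipitated with anti-GFP antibody from sonicated whole animals of strain OP746, a stable line in which the transgene wgIs746, holding a tbp-1::TY1 EGFP 3xFLAG fusion together with unc-119(+), was placed in unc-119(tm4063) mutants. The tag sits at the C terminus of the protein, and both samples carry it. Animals of mixed sex, synchronised by starving L1 larvae after bleaching, were taken as young adults at 65 hours. There are 2 biological replicates in 1 group, so no conditions could be compared. Whole animals hold both germline and soma, and in such bulk chromatin fewer cells bound and weaker binding per cell cannot be told apart.

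Meiotic chromosomes are built around a protein axis. In worms REC-8 is a meiosis-specific subunit of cohesin, the ring that holds sister chromatids together, and HTP-3, HIM-3, HTP-1 and HTP-2 are HORMA-domain proteins laid down along that axis. SYP-1, SYP-2 and SYP-3 assemble between the axes of paired homologous chromosomes and hold them in register while crossovers form. These proteins act in germ cells. TBP-1 is a general factor that helps RNA polymerases start, so a summit near a gene's 5' end is a site where the factor was recovered, not a measure of transcription.

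The authors deposited 4 peak lists. The reproducible list holds 3862 peaks kept by a threshold on the irreproducible discovery rate (IDR), a measure of rank agreement between replicates. The pooled list and each replicate list hold 30000 peaks with background included. All 3862 reproducible peaks were in the pooled list with the same position and rank, so they are the 3862 strongest pooled peaks. A reproducible peak need not be among the 3862 strongest of each replicate. The summit is the authors' position of highest signal in a peak, and rank 1 is the strongest signal in a list. Read depth is unknown from these peak lists. The most frequent peak width was 330 bp in the pooled list, 336 bp in replicate 1 and 480 bp in replicate 2.

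Within 500 bp of annotated 5' ends, the pooled TBP-1 summit ranked highest at rec-8, lower at syp-2 and syp-3, below the reproducible threshold at htp-1, and lower still at htp-3, htp-2 and him-3. A reproducible summit lay in this window at 3 of the 8 genes (rec-8, syp-2 and syp-3), where 10.2% of protein-coding genes had one. In the full pooled list 7 of the 8 had a summit in reach, syp-1 being the exception, where 35.8% of protein-coding genes had one. The same 7 had a summit in reach in both full replicate lists, as 29.1% of protein-coding genes did. Some of these may be background entries. The strongest pooled summit in reach had a deposited −log10 q of 0.613 at him-3 and 0.697 at htp-2. In replicate 2 it was 0.664 at him-3, 0.165 at htp-2 and 0.540 at htp-1. Among the 3862 strongest peaks of replicate 1 alone the same 3 genes had a summit, against 10.1% of protein-coding genes. Among those of replicate 2 alone only rec-8 had, against 9.60%. The order of htp-1, htp-3 and him-3 differed between the full replicate lists. In replicate 1 htp-1 (rank 4014) ranked above htp-3 (rank 9008) and him-3 (rank 18843). In replicate 2 htp-3 (rank 6808) and him-3 (rank 11519) ranked above htp-1 (rank 13050).

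**Figure D1:**
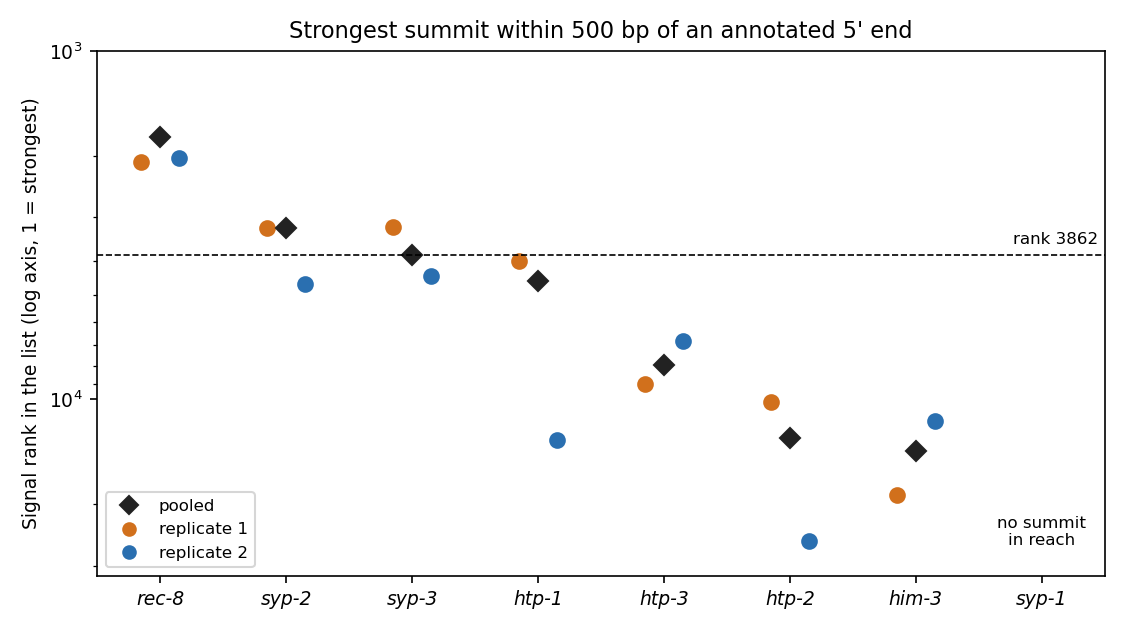
Signal rank of the strongest summit within 500 bp of an annotated 5' end at each gene (log axis, 1 is strongest), in the pooled list (diamonds) and in each replicate list (circles). The dashed line is rank 3862; rec-8 lies above it in all 3 lists, syp-2 and syp-3 in the pooled list and replicate 1, and the other 5 genes in none.

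The rec-8 summit was the strongest near a 5' end of the 8 genes. The gene (WBGene00004333) lies on the minus strand of chrIV:13349122-13353193 and has 3 annotated 5' ends. At the upstream end, which is that of the gene model, the summit was at -249 bp in the pooled list (rank 1768), at -258 bp in replicate 1 (rank 2089) and at -250 bp in replicate 2 (rank 2036). A pooled summit at least as strong was in reach of 799 of the 19973 protein-coding genes, rec-8 included, and the share was 5.01% in replicate 1 and 4.66% in replicate 2. The peak (chrIV:13353277-13353606) is intergenic. It lies between rec-8 and mex-5, an RNA-binding protein gene whose maternal product patterns the early embryo, and the facing 5' ends are 530 bp apart. The summit is at -281 bp from mex-5, so the facing ends are nearly the same distance from it, and the lists do not divide the signal between these genes. The other annotated rec-8 ends had weaker pooled summits in reach, of rank 4911, 20001, 25113 and 25170. Those of rank 4911 and 25170 lay past the 3' end of the gene.

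The 300 bases upstream of rec-8, from the RefSeq copy of WBcel235 (minus strand, chrIV:13353194-13353493), are shown because they hold the summit that ranked highest near a 5' end of the 8 genes. Capitals mark 11 bases centred on the pooled summit and the AG directly before the annotated 5' end, the letters that end a splice acceptor.
rec-8: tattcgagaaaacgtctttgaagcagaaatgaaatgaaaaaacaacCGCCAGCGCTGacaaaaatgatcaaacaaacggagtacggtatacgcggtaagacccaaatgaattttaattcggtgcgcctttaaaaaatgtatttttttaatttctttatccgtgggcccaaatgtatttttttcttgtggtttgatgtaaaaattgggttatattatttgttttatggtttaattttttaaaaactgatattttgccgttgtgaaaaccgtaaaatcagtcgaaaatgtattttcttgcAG
Many worm messenger RNAs receive a leader by trans-splicing, and an annotated end at such a site lies downstream of where transcription starts. An AG stood directly before the gene-model 5' end of rec-8, htp-1 and htp-3, 3 of the 8 genes, and of 27.6% of all 19973 protein-coding genes. TTTCAG, a longer splice acceptor consensus, was in the 30 bases upstream of 0 of the 8 and of 15.8% of all. Offsets at all 8 genes are distances from the annotated end and not from a measured start. At rec-8 and htp-1 the gene-model 5' end and the first start codon were 0 bp apart.

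htp-1 and htp-2 encode axis proteins and have similar coding sequences. The upstream summit ranked higher at htp-1 than at htp-2 in both lists where each gene had one. Their coding sequences are 1056 bases each and match at 954 positions (90.3%). htp-1 (WBGene00002032) lies on the minus strand of chrIV:5390189-5391557, and its upstream summit was at -285 bp in the pooled list, -286 bp in replicate 1 and -284 bp in replicate 2. The summit positions thus fell within 2 bp of each other, but the ranks were 4560, 4014 and 13050. This summit is at -87 bp from the divergent gene ZK616.5, nearer to it than to htp-1. htp-2 (WBGene00002033) lies on the plus strand of chrIV:6419522-6420898, and its upstream summit was at -64 bp in the pooled list (rank 20927) and at -124 bp in replicate 1 (rank 22973). Replicate 2 held no summit between htp-2 and Y73B6BL.23, its divergent neighbour.

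The sequence under the htp-1 summit recurs upstream of htp-2. A local alignment of 151 bases centred on the htp-1 summit matched 154 bases upstream of htp-2, with 134 of 147 aligned bases identical (91.2%). Capitals mark bases that are identical in the other gene; the strand is that of each gene, and the coordinates are chrIV:5391767-5391917 for htp-1 and chrIV:6419335-6419488 for htp-2.
htp-1: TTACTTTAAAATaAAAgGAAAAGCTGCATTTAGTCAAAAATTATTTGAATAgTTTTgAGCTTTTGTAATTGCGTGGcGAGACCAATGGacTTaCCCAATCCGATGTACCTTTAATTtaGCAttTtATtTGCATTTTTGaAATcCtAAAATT
htp-2: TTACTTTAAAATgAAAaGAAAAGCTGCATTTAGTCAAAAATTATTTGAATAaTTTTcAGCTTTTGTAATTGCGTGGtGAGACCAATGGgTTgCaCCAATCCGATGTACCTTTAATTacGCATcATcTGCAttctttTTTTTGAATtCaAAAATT
The block runs from -360 to -210 bp of htp-1 and from -187 to -34 bp of htp-2, and the base matched to the htp-1 summit lies at -112 bp of htp-2. The replicate 1 summit of htp-2 was 12 bp from that base and the pooled one 48 bp. Both were weak, with a deposited −log10 q of 0.259 in replicate 1 and 0.326 in the pooled list, so they may be background entries. In the pooled peak over the block, 5 of the 301 stretches of 30 bases at each gene (1.66%) occurred elsewhere in the nuclear genome. The part of repeated sequence in the difference of rank was not tested.

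**Figure D2:**
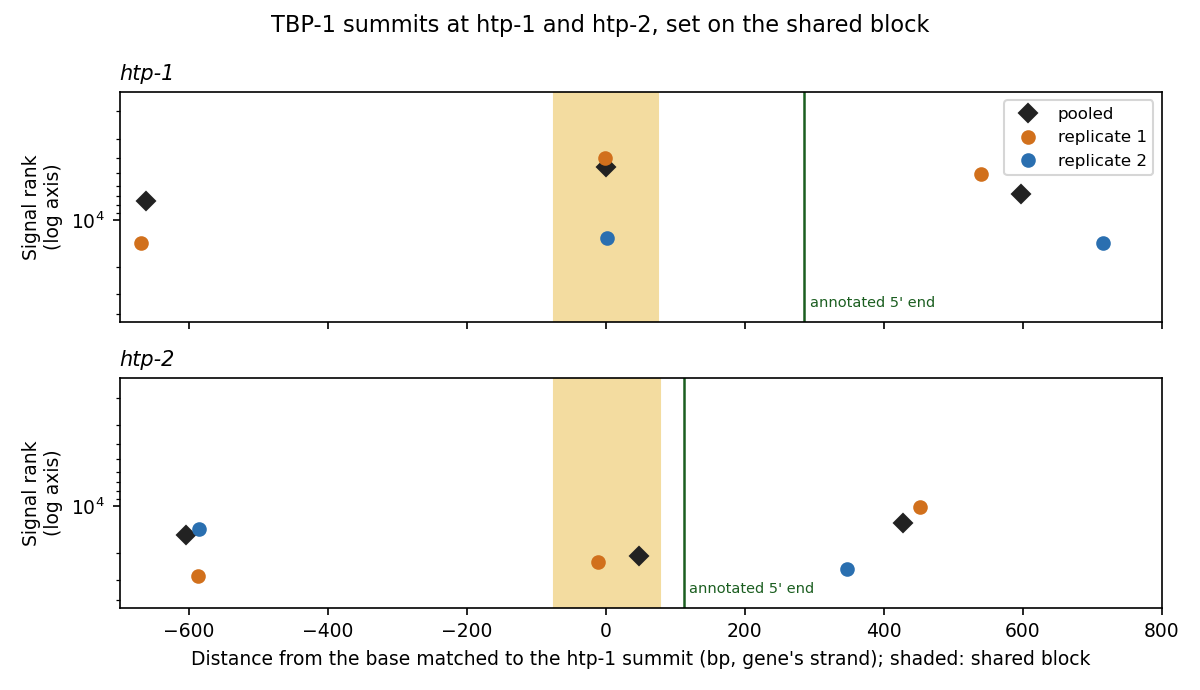
Summits at htp-1 and htp-2 by distance from the base matched to the htp-1 pooled summit (x axis, bp) and by signal rank (y axis, log scale), in the pooled and both replicate lists; shading marks the shared block and the green line the annotated 5' end. All 3 htp-1 summits in the block lie within 1 bp of 0, at ranks 4014 to 13050, while htp-2 has 2 summits there, at ranks 20927 and 22973.

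Each of these genes also had a summit inside its coding region. At htp-1 it was at 313 bp in the pooled list (rank 6793), 255 bp in replicate 1 (rank 5060) and 431 bp in replicate 2 (rank 13954). At htp-2 it was the strongest in reach, at 316 bp in the pooled list (rank 12898), 340 bp in replicate 1 (rank 10172) and 235 bp in replicate 2 (rank 25464). Both genes ranked lower in replicate 2. The ratio of the larger to the smaller replicate rank of the strongest summit was 3.25 at htp-1 and 2.50 at htp-2. The median of that ratio over the 5821 protein-coding genes with a summit in both replicates was 1.41 (interquartile range 1.14 to 1.92), and 5.93% of them had a ratio as large as htp-1. At the other 5 members with values it ran from 1.03 (rec-8) to 1.64 (him-3).

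him-3, whose product is needed for axis structure and crossing over, had no strong summit at its 5' end. The gene (WBGene00001862) lies on the plus strand of chrIV:6977508-6978765. Its nearest summit was at -198 bp in the pooled list (rank 14071), -451 bp in replicate 1 (rank 18843) and -238 bp in replicate 2 (rank 11519). These positions spread over 253 bp, and all 3 lie in the coding region of pgl-1, a P granule gene on the other strand. The facing ends of him-3 and pgl-1 are only 190 bp apart, and the pooled summit is 8 bp inside pgl-1. Stronger pooled summits lay farther off, at -640 bp in pgl-1 (rank 7009), at 683 bp in a him-3 intron (rank 6503) and past the him-3 3' end (rank 4449).

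The 189 bases between the annotated ends of him-3 and pgl-1 (plus strand, chrIV:6977319-6977507) are shown because they separate the facing ends and no summit of any list fell there. Capitals mark TATAAA read on the strand of pgl-1.
him-3: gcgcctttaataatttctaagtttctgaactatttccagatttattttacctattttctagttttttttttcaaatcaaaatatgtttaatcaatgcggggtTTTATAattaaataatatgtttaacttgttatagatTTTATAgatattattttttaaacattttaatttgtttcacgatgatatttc
The matches start at -87 and -51 bp of him-3. TATAAA is the core of the TATA box, the element that TBP contacts in classical promoters. On either strand it occurred in the 250 bases upstream of 2 of the 8 genes, him-3 and htp-3, and upstream of 35.2% of all protein-coding genes. In 151 bases centred on the strongest pooled summit it occurred at 1 of 7 genes (htp-3), and at 13.0% of 1560 reproducible summits with a protein-coding end and no tRNA, snoRNA, snRNA or rRNA end in reach. These sets are unlike, as the htp-3 summit was not reproducible. The windows at the reproducible summits of rec-8, syp-2 and syp-3 held no TATAAA. The B box of RNA polymerase III promoters, GTTCNANNC on either strand, was in 0 of the 8 upstream regions and in 6.97% of all. A match is a description of letters and not a binding site.

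The htp-3 summit lay inside the gene. htp-3 (WBGene00002034, chromosome I, plus strand, 4827072 to 4829791) encodes the HORMA protein on which the others depend for loading. Its strongest summit was in coding sequence of the gene itself, at 265 bp in the pooled list (rank 7971), 263 bp in replicate 1 (rank 9008) and 117 bp in replicate 2 (rank 6808), and no list had a summit within 1500 bp upstream. Its divergent neighbour tofu-4, a gene of the piRNA pathway, begins 433 bp away and had no reproducible summit. Over all protein-coding genes the strongest pooled summit in reach lay downstream of the annotated end in 33.4% of 7142 genes. Among the 7 members with a summit it did so in 3: htp-2, htp-3 and syp-2.

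syp-2 and syp-1 have long annotated 5' untranslated regions, and their strongest summits lay inside them, upstream of the start codon. syp-2 (WBGene00006376, chromosome V, plus strand, 5536487 to 5537717) had its reproducible summit at 186 bp from the annotated end (rank 3232), with 200 bp in replicate 1 (rank 3225) and 138 bp in replicate 2 (rank 4678). The start codon is 282 bp from the annotated end, so the pooled summit was at -96 bp from it. The divergent neighbour cox-16, a gene for assembly of cytochrome oxidase, begins 244 bp from syp-2, and the summit is at -430 bp from it. Of the 2035 protein-coding genes with a reproducible summit in reach, 14.4% had the strongest one downstream of the annotated end, as syp-2 did.

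syp-1 (WBGene00006375, chromosome V, plus strand, 16404274 to 16407701) had no summit within 500 bp of its annotated end in any list. The nearest was at 639 bp in the pooled list (rank 24124), 1253 bp in replicate 1 (rank 5730) and 855 bp in replicate 2 (rank 29729). That annotated end lies inside an intron of F13A7.14, a gene on the same strand, and 1489 bp from the syp-1 start codon. Counted from the start codon, the strongest summit was at -213 bp in the pooled list (rank 6216), -236 bp in replicate 1 (rank 5730) and -230 bp in replicate 2 (rank 23671). The positions fell within 23 bp of each other, while the replicate 2 rank was far lower than in the other lists. The deposited −log10 q of that replicate 2 summit was 0.188. With the start codon as the reference point, chosen after these values were seen, all 8 genes had a pooled summit within 500 bp, against 35.1% of protein-coding genes. A reproducible one was then in reach at 2 of the 8 (rec-8 and syp-2), against 9.48%.

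syp-3 (WBGene00006377, chromosome I, minus strand, 8663045 to 8664445) stood at the edge of the reproducible list. Its reproducible summit, at -211 bp, had rank 3859 of 3862. A second pooled summit at -2 bp had rank 3884, just below the threshold. In replicate 1 the same pair of summits was found at 12 bp (rank 3200) and -214 bp (rank 3258). In replicate 2 the strongest summit lay between them, at -104 bp (rank 4439). The facing end of F39H2.3 is 531 bp away, and the reproducible summit is at -320 bp from it. The region stood apart in its sequence: 57.6% of the 250 bases upstream of syp-3 are G or C, against 26.0% to 40.4% at the other 7 genes and a median of 33.2% over all protein-coding genes. Of the 30-base stretches in the reproducible peak, 42.5% occurred elsewhere in the nuclear genome, and 31.6% in the peak at -2 bp, against at most 1.66% in the strongest pooled peaks in reach of the other 6 genes. The part of repeated sequence in the syp-3 signal was not tested.

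**Figure D3:**
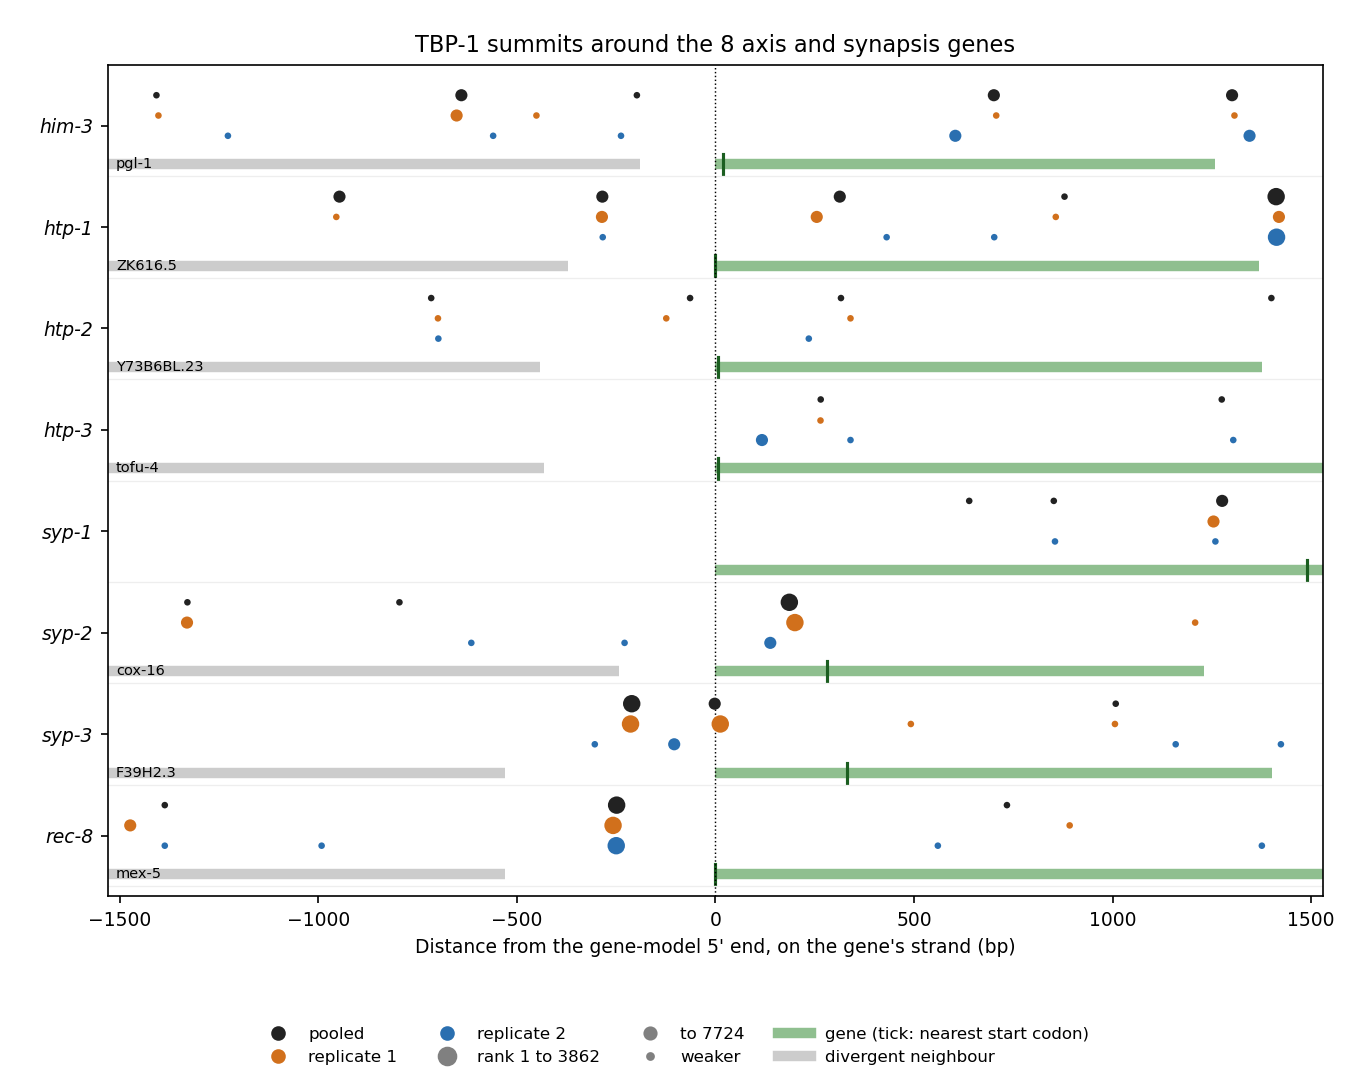
Summits within 1500 bp of the gene-model 5' end of each gene (x axis, bp on the gene's strand), in the pooled list and in each replicate list; larger points are stronger ranks (up to 3862, up to 7724, weaker), green bars are the genes with a tick at the nearest start codon, and grey bars begin at the 5' end of the divergent neighbour and are drawn to the edge whatever its length. Among these summits the rec-8 summit at about -250 bp is the only one upstream of its gene that ranks within 3862 in all 3 lists, and the htp-1 summit past the 3' end ranks within 3862 in the pooled list and replicate 2.

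All members but syp-1 share a divergent upstream region with another protein-coding gene. A protein-coding 5' end on the other strand lay within 1000 bp upstream of 7 of the 8 genes, at 190 bp (him-3) to 531 bp (syp-3), against 17.7% of all protein-coding genes. Of the 3539 protein-coding genes with a divergent neighbour 23.5% had a reproducible summit, and of the 16434 without one 7.31%. The count of 3 among the 7 members with a neighbour is to be read against the former share. At rec-8, syp-2 and syp-3 the partner gene (mex-5, cox-16 and F39H2.3) was in reach of the same peak. This comparison was chosen after seeing the positions. The nearest 5' end of a tRNA, snoRNA, snRNA or rRNA was 34055 bp from syp-1 and farther from the others.

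Some summits lay at the 3' ends instead. At htp-1 a summit 44 bp past the annotated 3' end, intergenic, had rank 2981 in the pooled and reproducible lists, 4707 in replicate 1 and 1909 in replicate 2. It ranked above the upstream htp-1 summit in the pooled list and replicate 2, and below it in replicate 1, where the upstream one had rank 4014. At him-3 a summit also 44 bp past the 3' end had rank 4449 in the pooled list, 7782 in replicate 1 and 4490 in replicate 2, and lay in the 3' untranslated region of prkl-1, a gene on the other strand. Pooled summits 24 bp past the htp-2 end and 60 bp past the rec-8 end ranked 24678 and 25170. In all, 1 of the 8 genes had a reproducible summit within 250 bp of its 3' end, against 4.05% of protein-coding genes, and 4 of the 8 a pooled one, against 22.0%. The 3' ends were examined after the summit positions were seen.

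Other meiotic genes were compared in 4 lists of 48 genes matched of 50. In all, 16 of the 48 had a reproducible summit in reach (33.3%, against 10.2% of protein-coding genes) and 36 had a pooled one, against 35.8%. The summit was upstream of the annotated end in 15 of the 16. Upstream is also the common side among all 2035 protein-coding genes with a reproducible summit, of which only 14.4% had it downstream. A divergent 5' end was present at 21 of the 48 meiotic genes, against 17.7% of all protein-coding genes. Of these 21 genes 12 had a reproducible summit, against 23.5% of protein-coding genes with a divergent neighbour. Of the 27 without a divergent end 4 had one, against 7.31%. The median pooled rank among those with a summit in reach was 4278 for these genes, 4560 for the 7 members with one and 7794 for all 7142 protein-coding genes with one.

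Of 5 other synapsis genes, 3 had a reproducible summit, against 10.2% of protein-coding genes. They were syp-4 (rank 723), syp-5 (rank 1205) and syp-6 (rank 1228), with summits at -179, -193 and -125 bp. These 3 encode further components of the central region, and their ranks in both replicates lay between 715 and 1295. The syp-4 peak was also in reach of the 5' ends of H27M09.5, H27M09.6 and H27M09.7, and the syp-5 peak of no other. The syp-6 peak is shared with mei-2, a gene of the meiotic spindle, which begins 273 bp from syp-6. skr-1 had a pooled summit of rank 3917, and skr-2 had none.

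Cohesin genes were reproducible in 7 of 11, against 10.2% of protein-coding genes. Of these 11 genes 9 had a divergent neighbour, and 23.5% of protein-coding genes with such a neighbour had a reproducible summit. Besides rec-8, counted among the 8, the meiotic kleisin genes coh-3 (rank 1157) and coh-4 (rank 1392) had summits at -143 and -213 bp, and scc-1, the mitotic kleisin gene, had rank 3121. The core subunit gene smc-3 had rank 2461 and scc-3 had rank 3278. The loader gene scc-2 had rank 1165, and wapl-1, whose product removes cohesin, had rank 893. Of these 7 peaks, 6 were also in reach of a neighbour's 5' end, such as rpn-5 at scc-1 and htz-1 at wapl-1.

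Pairing and checkpoint genes had a reproducible summit in 1 of 10, him-19 (rank 3173), a share close to the background. Of the genes for the zinc finger proteins of the pairing centres, zim-1 had a summit in reach in the pooled list (rank 5354), replicate 1 (rank 5722) and replicate 2 (rank 7286). zim-3 had one in replicate 1 only (rank 12445), and him-8 and zim-2 had none within 500 bp of a 5' end in any list. Genes for breaks and crossovers had a reproducible summit in 5 of 22, against 10.2% of protein-coding genes. Of these, him-5 (rank 741) and dsb-2 (rank 2210) act in break formation. The others, zhp-2 (rank 1835), msh-5 (rank 2694) and cosa-1 (rank 3144), act in crossover formation or its regulation. The him-5 summit lay 447 bp downstream of the annotated end and was in reach of D1086.3 and smy-3, and those of cosa-1 and msh-5 were at -490 and -406 bp, near the edge of the window. spo-11, which encodes the enzyme that makes meiotic breaks, had a pooled rank of 8551 and no summit in reach in replicate 2.

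**Figure D4:**
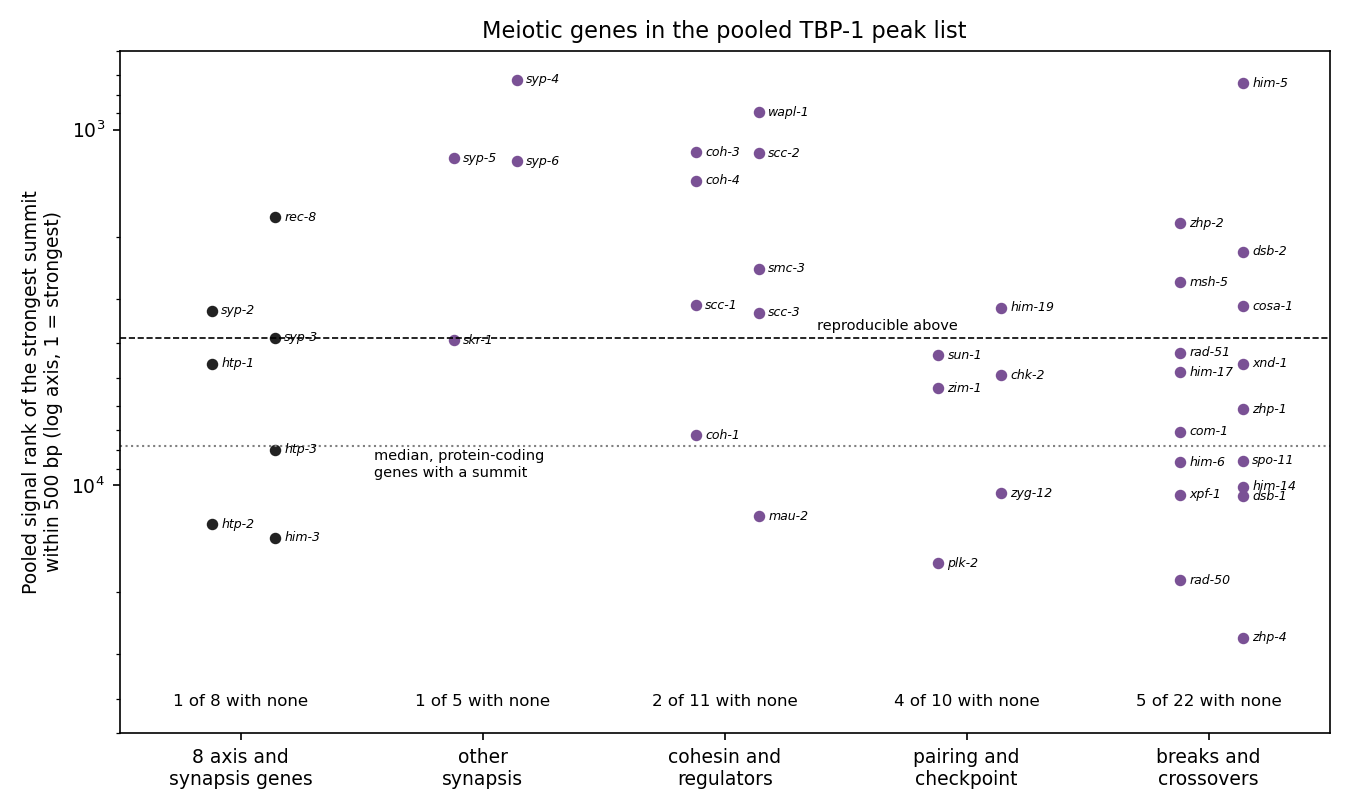
Pooled signal rank (log axis, 1 is strongest) of the strongest summit within 500 bp of an annotated 5' end, 1 point per gene, for the 8 axis and synapsis genes and 4 lists of other meiotic genes; the dashed line is rank 3862, the dotted line the median of protein-coding genes with a summit (7794), and the counts below give genes with none. syp-4, him-5 and wapl-1 rank highest, and 8 of the 11 cohesin genes lie above the dotted line.

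The rank pattern over the 2 replicate lists was matched within these lists by the mean absolute difference of log10 rank. The closest gene was zhp-2 for rec-8 (0.0581), scc-3 for both syp-2 (0.0172) and syp-3 (0.0269), him-17 for htp-1 (0.0181), rad-50 for htp-3 (0.0671), mau-2 for him-3 (0.113) and dsb-1 for htp-2 (0.125), out of 32 candidates with a summit in both replicates. With 2 lists this likeness describes only the level of the signal.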

How the data were processed

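Per the descriptions deposited with the lists, peaks are in narrowPeak format on ce11, called against a control alignment as input for IDR. Caller and aligner were not given in the sources used here. Signal, which the authors gave for every peak on an unstated scale, served only for ranking peaks inside a list. The deposited −log10 q is given for some weak summits and was used in no comparison. The authors' summit offset was added to the peak start. All peaks fit inside the WBcel235 chromosomes, and its RefSeq copy gave the sequences.

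A gene had a summit in reach when a summit lay within 500 bp of any annotated transcript 5' end (Ensembl release 115). Of the other meiotic genes, 48 of 50 symbols matched. No test was run: there is 1 group, and genes are not replicates. Shares are given beside those of all 19973 protein-coding genes. Named were the 8 members, genes in reach of their summits, the other meiotic genes with a reproducible summit, and the closest in rank; further genes were named after their values were seen. The members and lists were chosen with earlier results of these data known. The assignment step was checked on simulated summits. Alignments used biopython 1.88 (match 1, mismatch -1, gap opening -2, extension -0.5). Python 3.11.15, numpy 2.4.6, pandas 2.3.3 and matplotlib 3.10.9 were used.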

Additional observations from a re-analysis of the deposited data

How the results depend on the processing

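The count of 3 members with a reproducible summit (protein-coding share 10.2%) was 3 with windows of 250 bp (6.38%) and 1000 bp (13.5%). It was also 3 with gene-model ends (9.50%), nearest ends (6.89%) and peak intervals (11.4%). With start codons, an alternative chosen after seeing the data, it was 2 (9.48%). It fell to 1 (rec-8) with the strongest 1931 peaks (4.56%). Leaving out replicate 1 gave 1 (9.60%), and leaving out replicate 2 gave 3 (10.1%). The count of 16 other meiotic genes was 10 with 250 bp, 9 with the strongest 1931 peaks and 9 with nearest ends. That of 2035 protein-coding genes was 1274, 911 and 1377 in these settings. The count of 7 members with a pooled summit was 4 among the 7724 strongest pooled peaks (htp-1, syp-2, syp-3 and rec-8). The share of protein-coding genes there was 17.8%. The count was 5 with 250 bp (26.2%), 8 with 1000 bp (43.1%), 8 with start codons (35.1%) and 7 over the other settings (33.5% to 36.9%). The nearest summit changed side of the 5' end in single replicates: it ranged from -284 to 255 bp at htp-1, from -124 to 235 bp at htp-2 and from -104 to 12 bp at syp-3 (pooled -285, -64 and -2 bp). At rec-8 it was 210 to 238 bp, against -249 bp, because weak summits near its shorter transcripts were then nearest. The causes of the other changes were not tested. Depth is unknown, so a gene without a summit had none detected in these lists. No paired analysis was possible because there is 1 group.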

Other observations

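Several other meiotic genes, named here after their values were seen, ranked far apart in the 2 replicates, as htp-1 did. xnd-1, a gene that shapes crossover placement, had rank 4100 in replicate 1 and 26393 in replicate 2. com-1, a gene of break processing, had rank 5520 in replicate 1 and 22894 in replicate 2. him-17 had rank 3695 in replicate 1 and 13041 in replicate 2. mre-11, which encodes a nuclease at breaks, had rank 3432 in replicate 2 and no summit in reach in replicate 1 or in the pooled list. In contrast, syp-4 had ranks 730 and 715 and him-5 ranks 737 and 752.

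At him-3 the replicates ranked different summits highest. The intron summit, at 689 bp, had rank 17755 in replicate 1, and the nearest one in replicate 2, at 586 bp in a coding exon, had rank 4191. The summit in pgl-1 had rank 6081 at -652 bp in replicate 1 and rank 12291 at -560 bp in replicate 2.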
